A study of Mus with 8 samples.

Results

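The cells described here are newborn mouse blood progenitors that carried RNA of both Flt3 and Il7r, 2 receptors of early lymphoid cells. They were chosen cell by cell from their counts of unique molecular identifiers (UMI), where 1 UMI stands for 1 captured RNA molecule. A member held at least 7500 gene UMI, at most 10% mitochondrial UMI, at least 2 Flt3 UMI, at least 1 Il7r UMI, and under 3 UMI per 10000 of the B-lineage genes Ebf1, Vpreb1, Vpreb3 and Cd79a summed. By this gate 615 of the 20251 newborn cells that passed the UMI and mitochondrial limits were members, out of 35549 such cells in the series. Flt3, Il7r and the 4 B-lineage genes chose the members, so their levels are descriptions.

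The series used CITE-seq, in which RNA and antibody tags on surface proteins are counted in the same single cell, on 10x Genomics Chromium 3' libraries. Cells were sorted as Lin-Kit+ (LK), a mixture of committed progenitors, or Lin-Sca1+Kit+ (LSK), a fraction enriched for stem and multipotent cells. The mice were Ifnar+/- or Ifnar-/-, at birth (P0) or 14 days of age (P14). Each of the 8 combinations of age, fraction and genotype had 1 library, so all values compare single libraries and carry no p-value. All newborn groups share the Kit+ sort, and the Ifnar+/- controls carry 1 altered allele themselves. The organ, the strain, the kind of allele, the number of mice per library and whether LK and LSK cells came from the same mice were not given in the sources used here, and the labels write Ifnar without a number. Values for the newborn libraries are given in the order LK Ifnar+/-, LK Ifnar-/-, LSK Ifnar+/-, LSK Ifnar-/- unless libraries are named.

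FLT3 is a receptor tyrosine kinase of multipotent and lymphoid progenitors, and the interleukin-7 receptor alpha chain, encoded by Il7r, carries survival and growth signals to early B, T and innate lymphoid cells. Progenitors that hold both have a lymphoid bias and can still give rise to some myeloid cells. Such cells begin to transcribe unrearranged immunoglobulin and T-cell receptor loci before they commit to a lineage, which yields germline transcripts of constant-region genes such as Ighm and Trbc2. Type I interferon acts through the receptor chains IFNAR1 and IFNAR2 and induces a large set of antiviral genes.

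On GRCm38, Flt3 (ENSMUSG00000042817) lies on chromosome 5 at 147330741 to 147400489 and Il7r (ENSMUSG00000003882) on chromosome 15 at 9506159 to 9529941. Ighm (ENSMUSG00000076617), the constant region of the immunoglobulin mu heavy chain, lies on chromosome 12 at 113418826 to 113422730. Trbc2 (ENSMUSG00000076498), a constant region of the T-cell receptor beta chain, lies on chromosome 6 at 41546730 to 41548181. RefSeq lists the first pair as protein-coding genes and the second as constant-region segments.

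Members were a small part of every newborn library and were most frequent in LSK cells of Ifnar+/- mice. They made up 140 of 5891 LK Ifnar+/- cells (2.38%, exact 95% interval 2.0% to 2.80%) and 117 of 5767 LK Ifnar-/- cells (2.03%, 1.68% to 2.43%). In the LSK fraction they made up 325 of 5122 Ifnar+/- cells (6.35%, 5.69% to 7.05%) and 33 of 3471 Ifnar-/- cells (0.951%, 0.655% to 1.33%). The LK intervals overlapped, and the LSK intervals lay far apart. These intervals cover counting error only and say nothing of the spread between mice.

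The share was 6.67-fold lower in the Ifnar-/- than in the Ifnar+/- LSK library, a difference of -5.39 percentage points, against 1.17-fold and -0.348 points in the LK pair. With every cell thinned to 7500 UMI before gating, the shares were 0.645%, 0.590%, 1.58% and 0.202%, and the LSK ratio was 7.84 with 7 Ifnar-/- members left. The order of the libraries was the same with and without thinning. The LSK gate is set on Sca1, which is encoded by the interferon-induced gene Ly6a. Members held 49.1 CPM (gene UMI scaled to a common total per library) of Ly6a in the LSK Ifnar+/- library and 24.5 CPM in the LSK Ifnar-/- library, and the part of this gate in the share was not tested. Other cells of the LSK libraries differed as well. In the Ifnar-/- and Ifnar+/- library they held 3111 and 2129 CPM of the stem-cell list and 2401 and 1313 CPM of the erythroid list, and after thinning 26.0% and 54.4% had an Mpo UMI. The part of these differences in the member share was not tested.

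**Figure D1:**
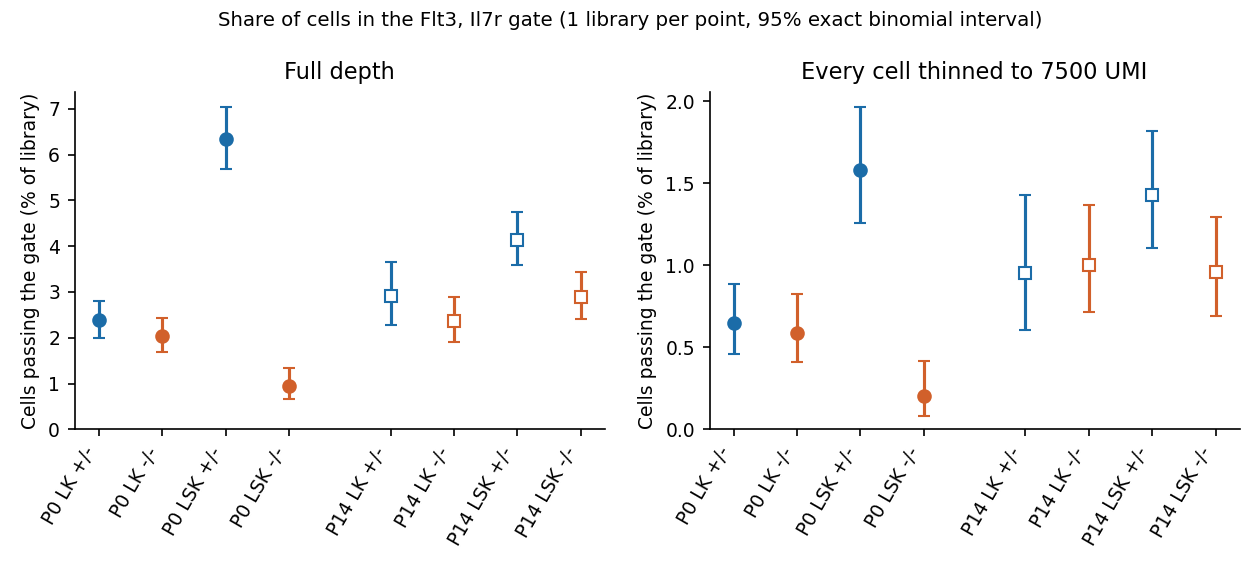
Cells passing the gate as a percent of each library, at full depth (left) and with every cell thinned to 7500 UMI (right), with 1 point per library (filled at P0, open at P14, blue Ifnar+/-, orange Ifnar-/-) and bars for the exact 95% binomial interval, which covers counting error only. The P0 LSK Ifnar+/- library is the highest in both panels, at 6.35% and 1.58%, and the P0 LSK Ifnar-/- library the lowest, at 0.951% and 0.202%.

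The LSK libraries were alike in their share of Flt3 cells and differed in how many of these had an Il7r UMI. Both genes chose the members, so these shares describe the gate. At full depth, cells with at least 2 Flt3 UMI made up 26.6%, 21.3%, 71.1% and 71.9% of the 4 libraries, so both LSK libraries were alike. Of these Flt3 cells, 10.4%, 11.2%, 10.1% and 1.56% had an Il7r UMI. Thinned to 7500 UMI the same shares were 6.13%, 6.51%, 5.19% and 0.521%, lowest in the same library, whose Flt3 cells were the deepest with a median of 39245 UMI against 31815.5 to 38007.5 in the other 3.

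Free RNA was read in erythroid-like cells, defined by at least 5 UMI each of Klf1 and Car1, which should lack Il7r. Without thinning, an Il7r UMI was found in 0.343% and 0.254% of 874 and 787 such LK cells, at median depths of 73249 and 57631 UMI. The LSK libraries held 28 and 18 erythroid-like cells, of which 1 and 0 had an Il7r UMI. The unthinned share in LK Flt3 cells therefore stood well above that of the deeper erythroid-like cells. For the LSK libraries this reference is too small to compare, and the Il7r share of 1.56% in the Ifnar-/- library has no usable background of its own. Barcodes with few UMI held 1.35, 2.84, 11.3 and 3.03 CPM of Il7r, most in the LSK Ifnar+/- library, and the part of this in the member share was not tested.

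Few cells lay next to the Flt3 limit. Members with exactly 2 Flt3 UMI, the least allowed, numbered 4, 12, 12 and 0, and 5, 12, 4 and 0 cells just outside the gate had 1 Flt3 UMI with Il7r, while 31, 24, 6 and 19 had Il7r and no Flt3 UMI. Members with exactly 1 Il7r UMI numbered 39, 57, 120 and 11. The median member held 7, 6, 9 and 12 Flt3 UMI and 3, 2, 2 and 2 Il7r UMI, at most 30 and 28 of each. The B-lineage limit removed 23, 21, 42 and 6 cells that passed on both receptors, and 60%, 74.4%, 61.2% and 57.6% of members held none of the 4 B-lineage genes.

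Depth behind these values was high. Member UMI summed to 5718853, 3776336, 13206734 and 1594647, so the LSK Ifnar-/- members are counted least precisely. The median member held 39634.5, 30524, 38839 and 47913 UMI, against 46498, 37968.5, 31762 and 36384.5 in the other cells of the same library. Of all cell barcodes, 43 were shared between pairs of P0 libraries, and none of them belonged to a member in both. A doublet caller, Scrublet, marked 8, 3, 0 and 0 members at its own threshold, and 2.48%, 2.81%, 0% and 0.288% of all barcodes. At a fixed rate it marked 11, 5, 21 and 1 members, or 7.86%, 4.27%, 6.46% and 3.03% of them. The fixed rate marked 4.72%, 4.61%, 4.10% and 2.77% of all barcodes. Members were thus marked more often than all barcodes in both Ifnar+/- libraries and less often in LK Ifnar-/-, while LSK Ifnar-/- rests on 1 marked member.

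The surface tags, which did not choose the members, carried both receptor proteins. The median count of the CD127 tag, on the interleukin-7 receptor alpha chain, was 52.5, 47, 72 and 41 in members and 11, 8, 20 and 17 in the other cells. The median count of the CD135 tag, on FLT3, was 51, 48, 70 and 71 in members and 8, 7, 29 and 28 in the other cells. In every library the members were higher for both, and 81.8% to 95.7% of members lay above the CD127 median of the other cells. For CD135 the share was 87.9% to 99.1%.

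Against Flt3 cells without an Il7r UMI, whose CD127 medians were 12, 9, 22 and 18, members were higher for CD127 in all 4 libraries. Taken as a share of all tags, the smallest fold of members over other cells over the 4 libraries was 1.34 for CD127 and 1.38 for CD135, against 2.41 for both by median count. The order is kept on both scales, at a smaller size by share. Members held more tags in all, with medians of 5579.5, 5861, 7024 and 10124 against 4731, 5060, 6355 and 5381.5, and the part of total tags in these differences was not tested.

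Of the other tags, CD34 was higher and CD150 lower in members than in other cells of all 4 libraries. The CD34 tag, on a sialomucin of early progenitors, stood at 289, 273, 341 and 508 in members and at 40, 37, 197 and 226 in other cells. CD201, the endothelial protein C receptor of stem cells, stood at 12.5, 7, 20 and 19 in members and at 7, 5, 28 and 99 in other cells. By count the members were higher than other cells for CD201 in the LK libraries and lower in the LSK libraries. As a share of all tags the fold of members over other cells was 1.08, 0.806, 0.550 and 0.166, so the direction in the LK Ifnar-/- library turned. CD150, a marker of stem and megakaryocytic cells, was lower in members than in other cells of all 4 libraries, at 13, 8, 17 and 18 against 18, 15, 22 and 46. In Flt3 cells without an Il7r UMI its medians were 11, 9, 17 and 33. Against these cells the members were higher in LK Ifnar+/-, equal in LSK Ifnar+/-, and clearly lower in LSK Ifnar-/- only. CD117, the KIT protein used in the sort, was lower in members of the LK libraries, at 458.5 and 449 against 730 and 778, lower in the LSK Ifnar+/- library at 655 against 689, and higher in the LSK Ifnar-/- library at 1062 against 1002. As a share of all tags CD117 was lower in members of all 4 libraries, with folds of 0.558, 0.545, 0.829 and 0.629.

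**Figure D2:**
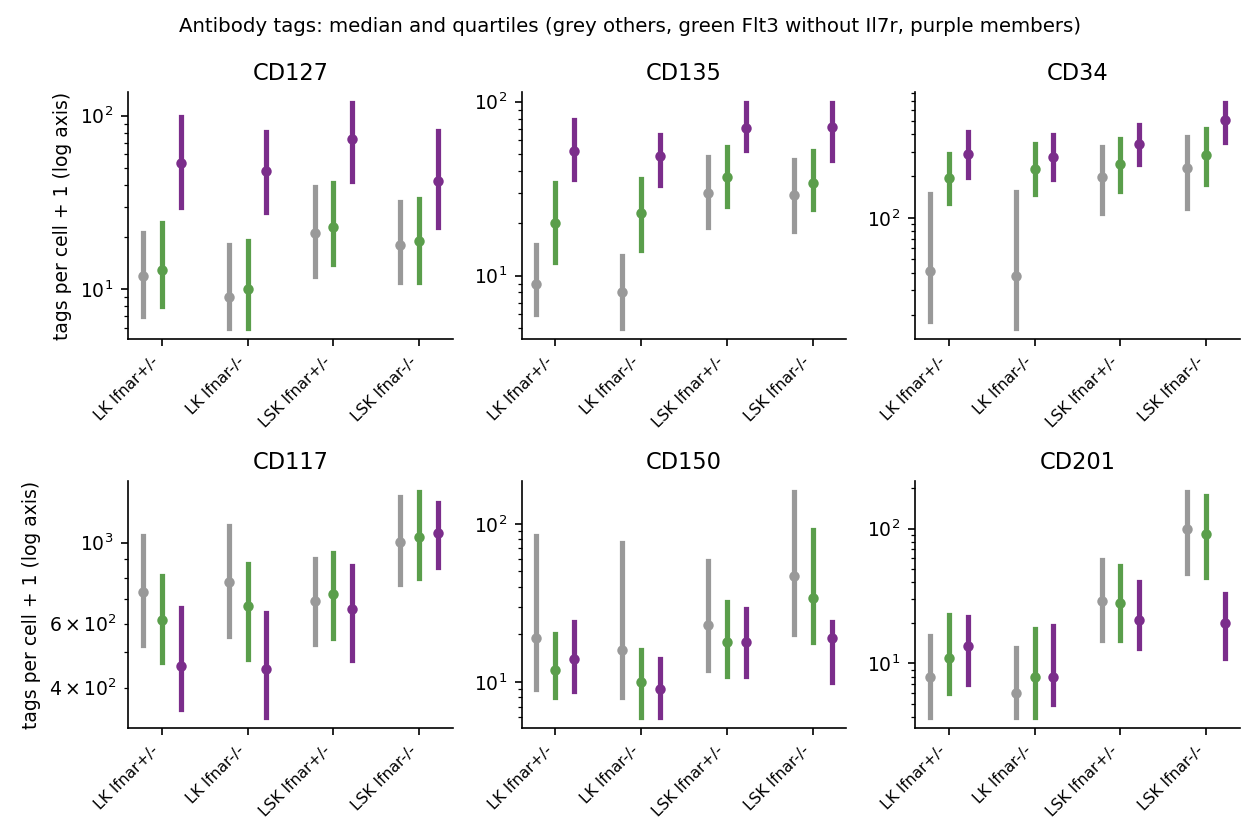
Antibody tags per cell plus 1, on a log axis of its own in each of the 6 panels, for other cells (grey), Flt3 cells without an Il7r UMI (green) and members (purple) of the 4 P0 libraries, with points at the median over cells and bars from the lower to the upper quartile. Members have the highest median of the 3 sets for CD127, CD135 and CD34 in each library, and their CD201 median lies below both other sets in the LSK libraries.

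A readout by protein alone, at a single tag limit, gave a smaller relative difference in the LSK genotype pair. Cells with at least 40 tags of both CD127 and CD135, a limit chosen after the values were seen, made up 3.16%, 2.34%, 19.4% and 12% of the libraries. The LSK Ifnar+/- library was again the highest, and the LSK Ifnar-/- library was above both LK libraries here. Of these cells 45.2%, 53.3%, 27.7% and 6.75% had an Il7r UMI. The LSK Ifnar-/- library was therefore low in Il7r RNA also among cells picked by protein. Of the members, 51.4%, 42.7%, 70.5% and 48.5% passed the tag limit.

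Members carried more RNA of Ighm, Trbc2 and some other lymphoid genes than the rest of their library. Over all 9206 genes tested, 83 (0.902%) were at least 2-fold higher in members than in other cells in each of the 4 libraries, and 80 (0.869%) were at least 2-fold lower. Genes were compared as log2 ratios of CPM plus 1, summed over cells. Of the 30 genes of a lymphoid priming list, 23 passed the filter of 5 CPM and 9 were higher in all 4 libraries: Ighm, Trbc2, Rag2, Notch1, Satb1, Ccr9, Ccr7, Lck and Ets1. None was lower in all 4. The list medians were 1.86, 1.86, 0.67 and 0.56 on the log2 scale, beside medians of 0.06, 0.06, -0.05 and -0.09 over all genes tested. The list was chosen with earlier results of these data known, and Ighm and Trbc2 were set as markers of these cells. Its counts and medians therefore describe the members and are no separate evidence of their type.

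Ighm stood at 304, 305, 309 and 223 CPM in members and at 15.2, 15.9, 52.4 and 14.8 CPM in other cells, which is 20.1, 19.1, 5.91 and 15.1-fold. The exact 95% Poisson interval of the lowest value, in the LSK Ifnar-/- library, was 200 to 247 CPM, which covers UMI counting error only and not the spread between cells or mice. Trbc2 stood at 195, 221, 296 and 275 CPM in members and at 8.72, 9.82, 49.6 and 19.1 CPM in other cells. Members of every library were far above its other cells for both genes.

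Shares of cells with a UMI showed how the RNA was spread. After thinning to 7500 UMI, an Ighm UMI was found in 85.7%, 85.5%, 82.5% and 60.6% of members, against 8.12%, 8.18%, 17.8% and 5.47% of other cells. Among erythroid-like cells of the LK libraries, which should lack it, the share was 1.14% and 0.762%. A Trbc2 UMI was found in 50%, 44.4%, 59.7% and 57.6% of members, against 4.36%, 4.51%, 14.2% and 7.16% of other cells and 1.14% and 0.889% of erythroid-like LK cells. Barcodes with few UMI held 22.1, 24.8, 75.7 and 18.9 CPM of Ighm and 13.8, 12.1, 65.4 and 21.0 CPM of Trbc2, above the other cells and below the members of each library for both genes. The part of free RNA in the values of other cells was not tested. Without thinning the shares of members with a Trbc2 UMI were 65%, 57.3%, 76.6% and 78.8%. The member with the most Ighm held 2.01%, 2.34%, 1.40% and 8.73% of the library's Ighm UMI in members, so no single cell carried the sum. For Trbc2 the top member held 3.23%, 7.90%, 1.72% and 15.5%, and the top 3 of the 33 LSK Ifnar-/- members held 44.7%.

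Ighm and Trbc2 were found together in 45.7%, 40.2%, 51.1% and 39.4% of members and neither was found in 10.0%, 10.3%, 8.92% and 21.2%. Transcripts of 2 loci that later belong to separate lineages were therefore seen in the same cells. Genes of later B-cell stages gave few UMI, in a gate that had itself removed cells rich in B-lineage RNA. After thinning, the light chain constant gene Igkc gave a UMI in 0, 0, 1 and 0 members, and the B-cell gene Pax5 in none. At this thinned depth a count of 0, taken as 3 counts of the total, allows a share of up to 2.14%, 2.56%, 0.923% and 9.09% of members with a UMI.

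The lymphocyte-specific recombination genes Rag1, Rag2 and Dntt were low in level in members, with Rag2 higher than in other cells. Without thinning, Rag1 and Dntt UMI were also found in a larger share of members than of other cells, apart from Dntt in LSK Ifnar-/-. Rag2, whose product cuts antigen receptor loci together with that of Rag1, stood at 13.6, 10.1, 17.3 and 7.53 CPM in members and at 0.815, 0.695, 2.30 and 0.943 CPM in other cells. Rag1 stood at 4.20, 3.18, 3.63 and 0.627 CPM, under the filter in each. Dntt, which encodes the terminal transferase that adds bases at the joints, stood at 1.05, 1.32, 2.65 and 0 CPM. Of the 15 genes of the recombination list only Rag2 was at least 2-fold higher in all 4 libraries, and none was lower. Of the 17 antigen receptor constant genes, Ighm, Trbc1 and Trbc2 were higher in all 4, and the list medians were 0.13, 0.00, 0.06 and 0.00. Tcrg-C1, a T-cell receptor gamma constant gene, was lower in members, at 6.47, 10.6, 0.303 and 0 CPM against 79.2, 78.9, 4.46 and 6.46 CPM in other cells. Trbc1 and Trbc2 are near-identical copies, so reads may have been split between them by the authors' counting.

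**Figure D3:**
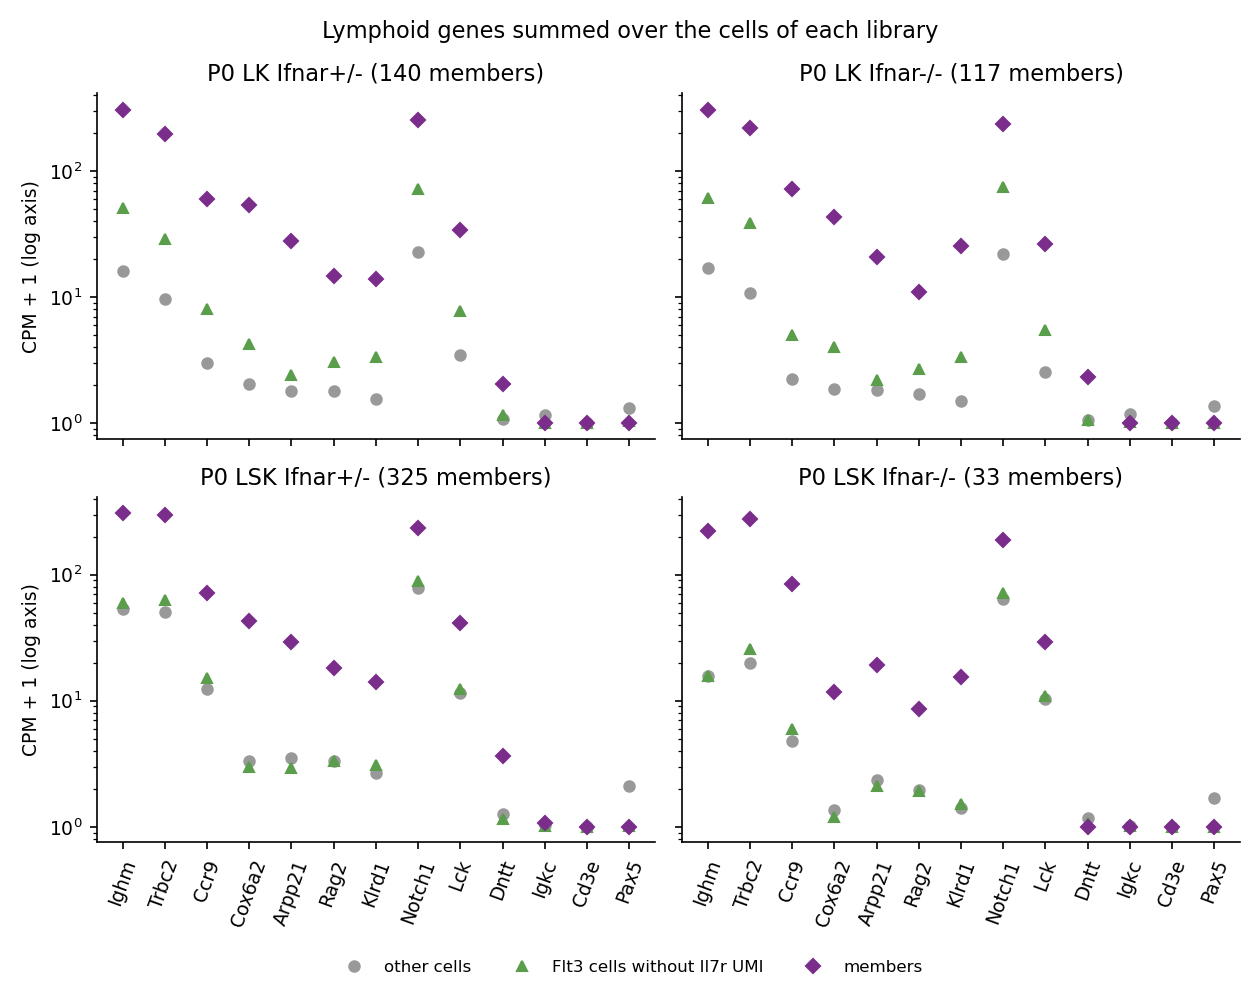
Pooled CPM plus 1 on a log axis for 13 genes in members (purple diamonds), Flt3 cells without an Il7r UMI (green triangles) and other cells (grey circles), with 1 panel per P0 library and no error bars. In members Ighm and Trbc2 lie between 195 and 309 CPM, above both other sets in each library, while Dntt, Igkc, Cd3e and Pax5 lie at or near 0 CPM.

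Several genes known from T-lymphoid cells were higher in members. Notch1, the receptor that drives T-cell commitment, stood at 256, 237, 233 and 188 CPM in members and at 21.9, 21.1, 76.8 and 63.4 CPM in other cells. Ccr9, a chemokine receptor for thymus homing, stood at 58.9, 71.2, 70.3 and 83.4 CPM against 1.98, 1.26, 11.3 and 3.8 CPM. Lck, the Src-family kinase of T-cell receptor signalling, stood at 33.4, 25.4, 40.6 and 28.2 CPM against 2.46, 1.53, 10.5 and 9.38 CPM. All 3 were higher in members of each library. Of the 20 genes of an early T-cell list, Lck, Notch1, Hes1, Ccr9 and Ccr7 were higher in all 4 libraries and none was lower. The list medians were 0.67, 0.85, 0.16 and -0.01. Tcf7 and Gata3, factors of the committed T lineage, were low in level, at 11.9, 18.3, 7.04 and 3.76 CPM and at 3.67, 3.97, 6.28 and 6.27 CPM. After thinning, 2.86%, 5.98%, 1.54% and 6.06% of members had a Tcf7 UMI, against 0.417%, 0.460%, 0.396% and 0.116% of other cells. The Tcf7 share was thus higher in members of each library, on 4, 7, 5 and 2 cells. For Gata3 the shares were 3.57%, 2.56%, 3.08% and 9.09% against 2.03%, 1.79%, 7.94% and 10.2%, lower in members of the LSK libraries.

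Of 18 genes of an innate lymphoid and NK list, Tox, Nfil3 and Klrd1 were at least 2-fold higher in all 4 libraries and none was lower. The list medians were 0.35, 0.29, 0.00 and 0.20. Nfil3, a factor of early innate lymphoid development, stood at 27.6, 29.7, 25 and 18.8 CPM in members and at 2.10, 2.32, 2.21 and 1.51 CPM in other cells. With the gate on thinned cells, which leaves 7 LSK Ifnar-/- members, its log2 ratio nearest 0 reversed to -1.44. Klrd1, which encodes CD94, stood at 12.9, 24.4, 13.1 and 14.4 CPM. Of 18 early B-cell genes only Rag2 was higher, in a gate that had itself removed cells rich in B-lineage RNA.

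The genes that set the members apart most, by the smallest log2 ratio over the 4 libraries, also held names outside the lists. Cox6a2, a subunit of cytochrome c oxidase, stood at 53.0, 42.1, 42.2 and 10.7 CPM in members and at 1.03, 0.879, 2.34 and 0.356 CPM in other cells. Arpp21, a cyclic AMP regulated phosphoprotein, stood at 26.8, 19.9, 28.2 and 18.2 CPM against 0.802, 0.845, 2.5 and 1.37 CPM. Gfra1, a receptor for glial cell line-derived neurotrophic factor, stood at 19.8, 22.2, 22.9 and 10.7 CPM against 0.499, 0.392, 2.23 and 0.267 CPM. For each of the 3 the LSK Ifnar-/- members were the lowest and were still above every set of other cells. Rasal1, Gm19331 and Cmah complete the highest 12 with Trbc2, Ighm, Ccr9, Klrd1, Nfil3 and Rag2, of which Cmah reversed to -0.67 with the gate on thinned cells.

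The genes lowest in members included both metallothioneins Mt1 and Mt2. The metallothionein Mt2 stood at 129, 104, 8.78 and 0.627 CPM in members and at 917, 806, 55.4 and 111 CPM in other cells. Grb10, an adaptor that restrains growth factor receptors, stood at 5.07, 7.94, 3.33 and 2.51 CPM against 45.1, 44.6, 26.2 and 50.5 CPM. Members were the lower set for both in each library. Mt1, Gm15915, Col18a1, Serpina3g, Muc13 and the platelet factor Pf4 were the others of the lowest 8. Of 18 erythroid genes 7 were at least 2-fold lower in all 4 libraries, among them Gata1, Klf1 and Car1, and none was higher.

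A list of 26 genes related to signalling of Il7r or Flt3 also held ligands and receptor chains, such as Il7, Flt3l and Crlf2. None of the 26 was at least 2-fold higher in members than in other cells of all 4 libraries, and 1 was lower. That gene was Socs2, a feedback inhibitor of cytokine signalling, at 4.02, 4.24, 6.89 and 25.7 CPM in members against 16.5, 15.4, 42.5 and 84.2 CPM. Bcl2, a survival factor downstream of interleukin-7, stood at 63.6, 72.6, 42.3 and 20.7 CPM, higher than other cells in the first 3 libraries and lower than their 30.8 CPM in the fourth. The list medians were 0.17, 0.28, -0.19 and -0.39, so the direction differed by fraction.

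Some myeloid RNA was present beside the lymphoid genes. The neutrophil list had medians of -1.31, -2.07, -0.38 and -0.89 in members over other cells, with none of its 16 genes at least 2-fold higher in all 4 libraries and 2 lower. Mpo, the granule enzyme of neutrophil progenitors, stood at 718, 839, 415 and 315 CPM in members and at 1054, 1238, 363 and 110 CPM in other cells. After thinning, 85.0%, 82.9%, 75.7% and 69.7% of members held an Mpo UMI, against 57.9%, 57.2%, 54.4% and 26.0% of other cells and 23.8% and 19.7% of erythroid-like LK cells. Without thinning the shares were 98.6% and 94.0% of LK members and 89.9% and 78.5% of the deeper erythroid-like LK cells. Thinning removes a larger part of the UMI of deeper cells, and the part of free RNA in the Mpo shares was not tested. Mpo was found together with Ighm or Trbc2 in 76.4%, 75.2%, 68.9% and 54.5% of members. In summed CPM members lay below the other LK cells and above the other LSK cells for Mpo. The share of cells with an Mpo UMI was higher in members than in other cells of all 4 libraries. Among Flt3 cells without an Il7r UMI this share was 81.2%, 85.0%, 60.8% and 30.1%. These cells were thus near the members in the LK libraries, above them in LK Ifnar-/-, and below them in the LSK libraries. Of 16 monocyte genes, Csf1r, Ly86 and Ctss were at least 2-fold higher in all 4 libraries. Csf1r, the receptor of macrophage colony-stimulating factor, stood at 38.5, 38.4, 24.0 and 30.7 CPM in members. Of 18 dendritic genes none was at least 2-fold higher in all 4 libraries and 1, H2-Ab1, was lower, while the summed list stood at 1010, 791, 919 and 532 CPM in members and at 395, 294, 768 and 408 CPM in other cells. Siglech, a lectin of plasmacytoid dendritic cells, gave a UMI after thinning in 2.86%, 6.84%, 1.85% and 3.03% of members and in 0.0696%, 0.195%, 0.188% and 0.116% of other cells. The part of dendritic RNA in the other values of members was not tested.

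Set beside their nearest neighbours, the Flt3 cells without an Il7r UMI, members stood higher for some lymphoid genes and lower for some stem-cell genes. Of 9281 genes tested, 51 (0.550%) were at least 2-fold higher in members in all 4 libraries and 57 (0.614%) were lower. Of the 30 lymphoid genes 8 were higher, all of the 9 above other than Ets1, and none was lower. The medians of the list were 0.82, 0.90, 0.58 and 0.47, beside -0.01, 0.00, -0.04 and -0.09 over all genes tested. Cells without an Il7r UMI can still express Il7r at a level not detectable at this depth, so these sets are not clean opposites.

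Ighm in the Flt3 cells without Il7r stood at 49.6, 60.3, 58.5 and 14.6 CPM, lowest in the LSK Ifnar-/- library. Cox6a2, Arpp21, Gfra1, Nfil3, Trbc1 and Ighm were the 6 genes highest in members. On the other side H2-Aa and Cd74, of antigen presentation by MHC class II, were among the 6 lowest. Cd74 stood at 3.85, 17.5, 6.51 and 2.51 CPM in members against 57.9, 79.6, 55.4 and 20.4 CPM. H2-Aa stood at 0.350, 5.56, 0.454 and 0 CPM against 33.3, 48.1, 29.0 and 7.12 CPM. These values are sums over cells. In the LK Ifnar-/- library 1 member held 85.7% of H2-Aa UMI and 1 held 71.2% of Cd74 UMI. Among Flt3 cells without Il7r the highest cell held 455, 347, 446 and 260 UMI per 10000 of the dendritic list. The upper quartiles of these cells were 8.04, 6.05, 8.73 and 5.03. The part of such single cells in the H2-Aa and Cd74 values was not tested.

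Of 20 stem-cell genes 6 were at least 2-fold lower in all 4 libraries, among them Procr, Mecom, Hlf and Esam, and none was higher. Hlf, a transcription factor of stem cells, stood at 25, 24.1, 84.4 and 175 CPM in members and at 146, 114, 289 and 508 CPM in Flt3 cells without Il7r. Mecom, another stem-cell factor, stood at 5.25, 3.18, 13.9 and 27.0 CPM against 26.5, 16.6, 58.9 and 147 CPM. Both were lower in members of each library, and both were highest in the LSK Ifnar-/- library in either set. The medians of the list were -0.69, -1.04, -1.23 and -1.56.

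Most members held RNA of cell division genes. After thinning, at least 3 UMI of 20 G2/M genes were found in 77.1%, 79.5%, 79.1% and 87.9% of members. The shares were 81.1%, 83.9%, 63.2% and 57.4% in other cells, above the members in the LK libraries and below them in the LSK libraries. Summed at full depth the 20 genes held 3364, 3120, 3619 and 4759 CPM in members and 2313, 2401, 2725 and 3003 CPM in other cells, so by level members were higher in all 4 libraries. The members of the 4 libraries had overlapping intervals, the widest from 71.8% to 96.6% in the LSK Ifnar-/- library.

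Within members the genotype pair differed mainly in interferon-stimulated genes. The targeted gene was read first. Ifnar1 stood at 39.0 and 43.4 CPM in LK members of Ifnar+/- and Ifnar-/- mice and at 44.4 and 25.7 CPM in LSK members, and Ifnar2 at 136 and 137 CPM and at 131 and 128 CPM. The labels do not say which part of the gene was altered, and 3' counts outside it do not check the allele. Of 9369 genes tested, 66 (0.704%) were at least 2-fold lower in Ifnar-/- members in both pairs and 3 (0.0320%) were higher.

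Of 58 interferon genes 50 passed the filter, 40 were at least 2-fold lower in Ifnar-/- members of both fractions, and none was higher. The list medians were -2.02 in LK and -2.16 in LSK members, beside 0.00 and 0.04 over all genes tested. With the genes at 0 UMI in the Ifnar-/- members set at 3 counts, the medians were -2.02 and -1.92. Summed over the list, members held 3369 and 937 CPM in the LK pair and 3916 and 1143 CPM in the LSK pair.

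The shift ran through the cells. In LK Ifnar+/- members the interferon UMI per 10000 ranged from 10.4 through a median of 33.3 to 109, and in LK Ifnar-/- members from 2.67 through 8.92 to 33.9. In LSK members they ranged from 15.6 through 37.5 to 278 in Ifnar+/- and from 4.44 through 11.3 to 22.8 in Ifnar-/- cells. The ranges overlapped in both fractions, and the Ifnar-/- medians lay below the lowest Ifnar+/- member in each. In the other cells the medians were 17.9, 7.01, 40.9 and 15.1, so the LK members of both genotypes stood above the other cells of their library and the LSK members below theirs. In Flt3 cells without an Il7r UMI the medians were 31.7, 11.0, 41.2 and 14.6. Against these cells the LK Ifnar+/- members were slightly higher, and the members of LK Ifnar-/- and of both LSK libraries were lower.

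Isg15, an interferon-induced ubiquitin-like protein, stood at 107, 0.530, 130 and 4.39 CPM. Rtp4, an interferon-induced chaperone, stood at 94.1, 0.794, 117 and 1.88 CPM. Ifi27l2a, a small interferon-induced protein, stood at 168, 2.12, 205 and 5.02 CPM. For each of them both Ifnar+/- libraries were high and both Ifnar-/- libraries near 0. Irf7, the transcription factor that amplifies the response, stood at 59.1, 0.794, 93.5 and 4.39 CPM.

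Oas1a and Oasl1, of the oligoadenylate synthetase family, had 0 UMI in both Ifnar-/- sets. Against a floor of 3 counts per library, Oas1a was at least 32.1-fold and at least 12.2-fold higher in Ifnar+/- LK and LSK members, and Oasl1 at least 27.5-fold and at least 11.8-fold. Bst2, or tetherin, stood at 300, 99.3, 343 and 93.4 CPM, so this gene kept a level in Ifnar-/- members. The 6 lowest genes were Rtp4, Gm47283, Ifi27l2a, Isg15, Oas1a and Oasl1.

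Gm47283, a predicted gene that is not on the interferon list, stood at 92.0, 1.59, 133 and 0.627 CPM in members. The other cells of the same libraries held 91.8, 1.04, 127.2 and 1.39 CPM. At P14 the gate held 148, 138, 133 and 162 CPM, so this gene separated the newborn libraries by genotype, in members and other cells alike, and did not separate the older ones. Its position and the sex, strain and number of the mice in each library were not given in the sources used here, and the part of any of them in this gene was not tested.

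**Figure D4:**
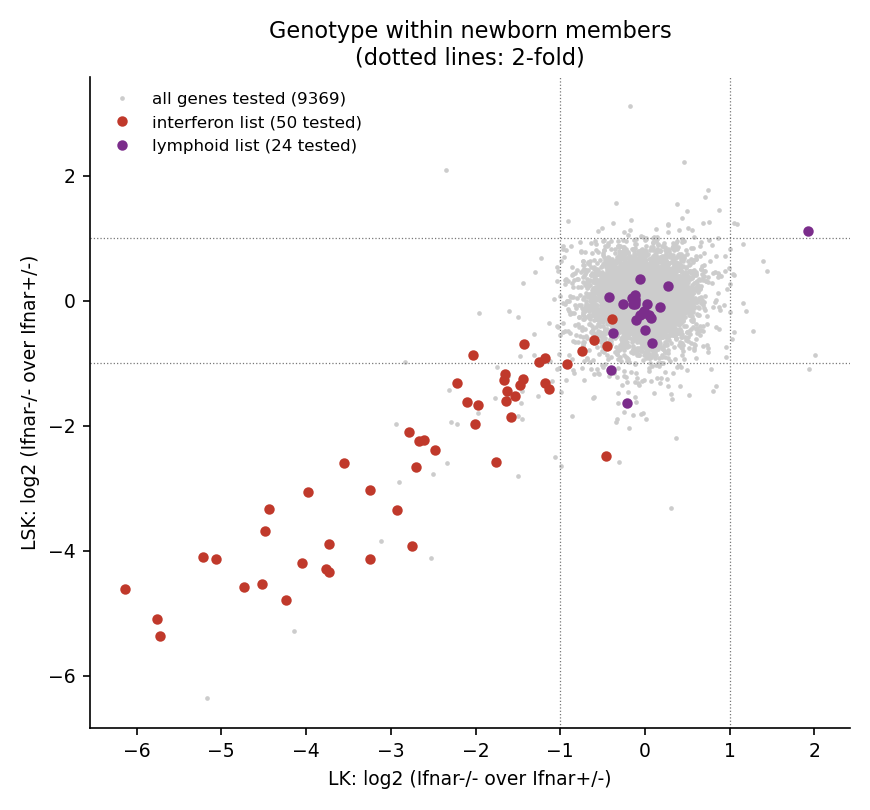
Log2 ratio of Ifnar-/- over Ifnar+/- members, from CPM plus 1, in the LK pair (horizontal axis) against the LSK pair (vertical axis), with 1 point per gene tested (grey), the interferon list in red, the lymphoid list in purple and dotted lines at a 2-fold difference. Of the interferon genes 40 lie beyond the 2-fold lines at the lower left, and the lymphoid genes lie around 0 for the most part, with Cd7 at the upper right and Rag2 among those on the low side of the LSK axis.

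Some MHC class I genes were also lower in Ifnar-/- members. Of 18 genes 3 (H2-D1, H2-Q4 and Tap1) were at least 2-fold lower in both pairs, and the medians were -0.50 and -0.72. B2m, the light chain of MHC class I, stood at 590, 328, 757 and 352 CPM, which is 1.80-fold and 2.15-fold higher in Ifnar+/- members. H2-K1, a classical heavy chain, stood at 223, 111, 307 and 111 CPM. Both Ifnar-/- libraries were below both Ifnar+/- libraries for each of them.

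Of the 30 lymphoid genes none was at least 2-fold lower in both pairs and 1, Cd7, was higher. The medians of the list were -0.08 in LK and -0.18 in LSK members. Ighm differed by 0.00 on the log2 scale in LK and -0.47 in LSK members, Trbc2 by 0.18 and -0.11, and Notch1 by -0.11 and -0.31. Rag2 differed by -0.40 and -1.11, the latter on 12 UMI in the LSK Ifnar-/- members.

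The 3 genes higher in Ifnar-/- members were low and uneven. Cd7, an early lymphoid surface protein, stood at 3.67, 16.7, 4.92 and 11.9 CPM. Cttn, which encodes the actin-binding protein cortactin, stood at 2.97, 7.41, 3.18 and 8.78 CPM. Siglech stood at 7.17, 15.9, 2.57 and 7.53 CPM, and in the LSK Ifnar-/- library 1 member carried 91.7% of its UMI. With the gate set on cells thinned to 7500 UMI, which leaves 7 LSK Ifnar-/- members, the smaller log2 ratio of all 3 turned negative, at -3.01, -2.18 and -2.07.

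Across the sort, members of the LSK and LK libraries differed in some stem-cell and neutrophil genes. Of 9429 genes tested, 15 (0.159%) were at least 2-fold higher in LSK members in both genotypes and 44 (0.467%) were lower. Of the 30 lymphoid genes none was called in either direction, with medians of 0.05 and -0.05. The stem-cell list had medians of 0.35 in Ifnar+/- and 1.41 in Ifnar-/- members, with Mecom and Hlf at least 2-fold higher in both. Hlf was 1.71 and 2.81 higher on the log2 scale, and Mecom 1.26 and 2.74. Cma1, Myct1, Sytl4 and Nkx2-3 complete the 6 highest.

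Of 16 neutrophil genes 7 were at least 2-fold lower in LSK members (Elane, Prtn3, Ctsg, Ms4a3, S100a8, S100a9 and Hp), with medians of -1.37 and -1.64. Elane, encoding neutrophil elastase, stood at 129, 72.8, 0.303 and 0.627 CPM. After thinning, 12.1% and 11.1% of LK members had an Elane UMI, near the 9.27% and 10.2% of erythroid-like LK cells. Without thinning the shares were 40% and 27.4% of LK members and 57.7% and 49.9% of the deeper erythroid-like cells. Most LK members were thus not set apart from this free RNA reference for Elane. Single LK members carried much of the UMI of some of the 7 genes. In the LK Ifnar+/- library 1 member held 388 of 737 Elane UMI, and 1 held 801 of 844 UMI of the calprotectin subunit S100a8. In the LK Ifnar-/- library 1 member held 193 of 275 Elane UMI, while its 19 S100a8 UMI were spread over 18 members. With at least 3 Flt3 and 2 Il7r UMI in the gate the log2 ratio of Ms4a3 nearest 0 reversed to 0.25. With Scrublet's doublets removed, the count of lower genes fell from 44 to 25 at its own threshold and to 17 at a fixed rate. At its own threshold Scrublet marked 8 and 3 LK members and 0 members of either LSK library, so members were removed from the LK side only. With free RNA subtracted the count of lower genes was 23.

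Mast cell RNA was as narrow. Cma1, a mast cell chymase and the highest of the LSK genes by the rule, came from 1 member in the LSK Ifnar+/- library, which held all 114 UMI, and for 96.5% of UMI from 1 member in the LSK Ifnar-/- library. It reversed under 3 settings, to -0.87 with a 5% mitochondrial limit, -0.77 with at least 3 Flt3 and 2 Il7r UMI and -0.82 with the gate on thinned cells. Of the tryptase Tpsb2, 1 LSK Ifnar-/- member held 97.5% of UMI.

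The same gate at P14 held 70 of 2411, 92 of 3885, 191 of 4615 and 127 of 4387 cells, or 2.90%, 2.37%, 4.14% and 2.89%. The age pairs were compared within fraction and genotype. The organ is not labelled at either age, so age and organ cannot be told apart. Of 9286 genes tested, 32 (0.345%) were at least 2-fold higher at P14 in all 4 pairs and 30 (0.323%) were lower.

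Dntt (ENSMUSG00000025014, chromosome 19, 41029275 to 41059525 on GRCm38) gave the largest difference. It stood at 1.05, 1.32, 2.65 and 0 CPM at P0 and at 766, 841, 773 and 699 CPM at P14. After thinning, a Dntt UMI was found in 0%, 0%, 2.46% and 0% of newborn members and in 78.6%, 82.6%, 79.6% and 79.5% of cells in the gate at P14. At the thinned depth a count of 0, taken as 3 counts of the total, allows up to 2.14%, 2.56% and 9.09% of members with a UMI in those 3 libraries. Without thinning 2.86%, 3.42%, 5.54% and 0% of newborn members had a Dntt UMI. The groups did not come near each other. In the LSK Ifnar-/- pair, with 0 UMI at birth, the level at P14 was at least 372-fold higher against a floor of 3 counts.

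Of the 30 lymphoid genes Dntt was at least 2-fold higher and Trbc2 lower at P14 in all 4 pairs, and the medians were 0.01, 0.02, -0.03 and 0.18. Trbc2 stood at 49.0, 80.5, 87.9 and 124 CPM at P14, below all 4 newborn values. Ighm stood at 345, 335, 323 and 305 CPM at P14 and was within 2-fold of birth in each pair. Rag2 stood at 17.0, 22.6, 24.8 and 19.4 CPM at P14, above the newborn value in each pair.

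**Figure D5:**
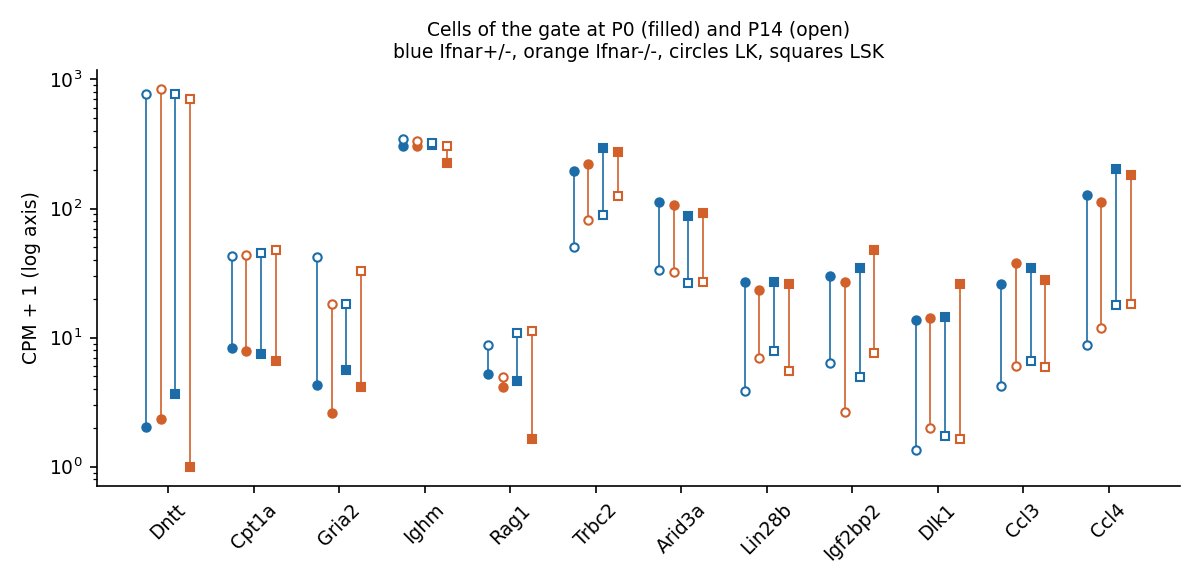
Pooled CPM plus 1 on a log axis in cells of the gate at P0 (filled) and P14 (open) for 12 genes, with a line joining the ages of each fraction and genotype (circles LK, squares LSK, blue Ifnar+/-, orange Ifnar-/-) and no error bars. Dntt lies at 0 to 2.65 CPM at P0 and at 699 to 841 CPM at P14, and Lin28b lies at 22.2 to 26.0 CPM at P0 and at 2.84 to 6.86 CPM at P14.

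Of 18 genes of a fetal programme list 4 (Lin28b, Igf2bp2, Arid3a and Dlk1) fell by 2-fold or more from P0 to P14 in all 4 pairs and none was higher, with medians of -1.12, -0.95, -0.74 and -0.75. Lin28b, an RNA-binding protein that marks fetal blood progenitors, stood at 25.9, 22.2, 26.0 and 25.1 CPM at P0 and at 2.84, 5.99, 6.86 and 4.49 CPM at P14. Igf2bp2, another RNA-binding protein, stood at 29.0, 26.0, 33.4 and 46.4 CPM at P0 and at 5.33, 1.66, 3.94 and 6.62 CPM at P14. Every newborn library lay above every P14 library for both.

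The chemokines Ccl4 and Ccl3, which attract myeloid and T cells, were also lower. Ccl4 stood at 126, 112, 202 and 181 CPM at P0 and at 7.81, 11.0, 16.8 and 17.3 CPM at P14. Ccl3 stood at 25, 36.8, 33.7 and 27.0 CPM at P0 and at 3.20, 4.99, 5.55 and 4.91 CPM at P14. Cpt1a, the carnitine transferase of mitochondrial fatty acid uptake, was among the 6 genes highest at P14, at 42.3, 42.6, 44.5 and 46.8 CPM against 7.34, 6.88, 6.44 and 5.64 CPM. For each of the 3 the ages did not overlap.

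The interferon list had medians of -0.95 and -0.98 at P14 over P0 in the LK and LSK Ifnar+/- pairs, and of 0.35 and 0.00 in the Ifnar-/- pairs. Isg15 in Ifnar+/- cells of the gate stood at 107 and 130 CPM at P0 and at 8.17 and 15.2 CPM at P14. At P14 the Ifnar-/- cells held 1.33 and 1.07 CPM, still below the Ifnar+/- cells. No interferon gene was at least 2-fold lower in all 4 pairs, and the difference between genotypes in the age effect was not tested.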

How the data were processed

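CITE-seq libraries of sorted mouse progenitors, 1 per combination of age, fraction and genotype, were analysed. The deposited matrices hold raw counts of UMI for each gene, antibody tag and barcode, and no cells had been filtered out. Per the submitters' processing notes Cell Ranger 6.0.1 and mm10 were used, and the file headers name Cell Ranger version 4. The annotation release was not given in the sources used here. Gene positions came from RefSeq for GRCm38, and no gene was named from it.

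Barcodes needed at least 7500 gene UMI and at most 10% mitochondrial UMI. The members and all gene lists were chosen with earlier results of these data known. Member UMI were summed per library, scaled to CPM and compared as log2 of CPM plus 1. A gene was called at 2-fold or more in the same direction in every pair, with at least 5 CPM in 1 arm of each. Named genes were the 12 highest and 8 lowest against other cells, and the 6 highest and 6 lowest in the other comparisons, by the smallest absolute log2 ratio over pairs, without the genes of the gate, Xist, Tsix and a fixed set of Y-linked genes. Genes of the lymphoid, antigen receptor, recombination and receptor signalling lists, the most abundant genes of the other lists and a few progenitor and receptor genes were also read. Genes called in a list are named from it, and a few are not reported here. The 25 lists cover lymphoid priming, antigen receptor constant regions, recombination, receptor signalling, early B, early T, innate lymphoid and NK, dendritic, stem, erythroid, megakaryocyte, neutrophil, monocyte, basophil and mast, hepatocyte, interferon, MHC class I, interferon receptor signalling, fetal, G2/M, G1/S, immediate early, lymphoid and myeloid transcription factors, and homing. List medians are over all list genes found in the features.

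Shares have exact Clopper-Pearson and CPM exact Poisson 95% intervals, for counting error only; UMI remove amplification copies. For shares of cells with a UMI, cells were thinned to 7500 UMI. Scrublet in scanpy 1.11.5 marked 0% of the LSK Ifnar+/- and 0.288% of the LSK Ifnar-/- newborn barcodes at its own threshold, so it did not work there. No doublet was removed in the main values, and removal at its own threshold or at 0.8% per 1000 cells were alternatives. Other alternatives covered the gate, mitochondrial limit, UMI minimum, thinning, TMM scaling (edgeR 4.0.16 in R 4.3.3), pseudocount, gene filter, fold threshold, equal weight per cell and free RNA. The calling was tested on simulated data. With 1 library per group no test between groups was made. Python 3.11.15, numpy 2.4.6, scipy 1.17.1 and pandas 2.3.3 were used.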

Additional observations from a re-analysis of the deposited data

Results flagged for a closer look

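Effects that ran in opposite directions in paired libraries, by member share or by the median over the genes of a list, are listed here. With 1 library per group none of these differences was tested, and no explanation is weighed.

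The share of members was 3.97 percentage points higher in LSK than in LK cells of Ifnar+/- newborns and differed by -1.08 points in Ifnar-/- newborns, so the order of the fractions was opposite in the genotypes. The dendritic list, which holds the interferon-induced genes Bst2 and Irf7, had a median log2 ratio of Ifnar-/- over Ifnar+/- members of 0.32 in LK and -0.34 in LSK cells. Summed, this list was lower in Ifnar-/- members of both fractions, at 791 against 1010 CPM in LK and 532 against 919 CPM in LSK. Its opposite directions thus hold for the gene median and not for the sum. The stem-cell list had medians of -0.34 in LK and 0.56 in LSK members for the same contrast, with Socs2, outside that list, alike in LK members (4.02 and 4.24 CPM) and at 6.89 and 25.7 CPM in LSK members. Summed, the stem-cell list held 750 CPM in Ifnar+/- and 733 CPM in Ifnar-/- LK members. The median LK member held 5.96 and 6.12 UMI per 10000 of it, so LK members were nearly alike on these 2 scales. The interferon list in LK cells of the gate had a median of P14 over P0 of -0.95 in Ifnar+/- and of 0.35 in Ifnar-/- mice.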

How the results depend on the processing

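No paired analysis was possible because replicate numbers pair nothing here: each group had 1 library, numbered 1. Pairs formed by fraction, genotype, age or library are given as values side by side. Each library was left out in turn in the comparisons of members with other cells, and each pair in the age comparison; these alternatives and the tag readout were added after seeing the data. Of 252 recomputed summary values, 196 stayed within the tolerance (1.5-fold for a count) and 56 moved. None of the 252 was labelled as reversed, but gene counts and shares of cells could not be under the rule used. A share difference within its main interval counted as stayed whatever its sign. Of the further recomputed values, mostly of named genes, 980 stayed and 23 moved. The 980 include the counts of lymphoid genes by genotype, which were always labelled as stayed. Another 22, all of named genes, kept their direction but fell under the fold threshold, and 10 reversed. Where a setting is not said to show it, the cause of a movement was not tested.

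The LSK share difference of -5.39 points was -3.25 with at least 3 Flt3 and 2 Il7r UMI, -1.38 with the gate on cells thinned to 7500 UMI and -4.49 with B-lineage genes under 1 UMI per 10000. A pseudocount of 5 CPM gave 46 higher and 39 lower genes against other cells (83 and 80 in the report), 27 and 27 against Flt3 cells without Il7r, 0 higher genes for genotype, 6 higher and 26 lower for fraction, and 18 and 17 for age. It gave interferon medians of -1.48 in LK and -1.41 in LSK members, and a pseudocount of 0.2 CPM gave -2.72 and -2.58. A 1.5-fold threshold gave 174 and 171, 118 and 139, 24 and 110, 99 and 93, and 129 and 83 genes for those 5 comparisons. A filter of 1 CPM gave 136 lower genes against other cells, 10 higher for genotype, and 30 higher and 87 lower for fraction. A filter of 20 CPM, which tests fewer genes, gave 34 and 25 against other cells, 0 higher and 38 lower for genotype, and 7 and 13 for fraction. Without the LSK Ifnar+/- library 126 genes were lower than in other cells.

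With the gate on thinned cells, which leaves 7 LSK Ifnar-/- members, the lowest lymphoid median against Flt3 cells without Il7r was 0.17, the genotype comparison gave 29 higher and 140 lower genes with interferon medians of -2.48 and -2.63, fraction gave 31 and 28, the fetal median nearest 0 was -0.35 and the lowest CD127 fold was 3.81. There the log2 ratio nearest 0 reversed for Nfil3 (-1.44 against other cells and -1.21 against Flt3 cells without Il7r), Cmah (-0.67), Cd7 (-3.01), Cttn (-2.18), Siglech (-2.07) and Cma1 (-0.82). Cma1 also reversed with 5% mitochondrial UMI (-0.87) and, with at least 3 Flt3 and 2 Il7r UMI (-0.77), as did Ms4a3 (0.25). That last gate gave 6 higher genes for genotype. For fraction, B-lineage genes under 1 UMI per 10000 gave 25 higher, and lower genes numbered 25 and 17 without doublets at Scrublet's own threshold and at a fixed rate, 27 with equal weight per cell and 23 with free RNA subtracted. As a share of tags the lowest CD127 and CD135 folds were 1.34 and 1.38 (2.41 and 2.41 by median). Without thinning the lowest shares of members with Ighm and Mpo were 81.8% and 90.9% (60.6% and 69.7%). The 33 LSK Ifnar-/- members limit every value that rests on them.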

Other observations

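Lymphoid transcription factors and surface genes gave further values in members. Satb1, a chromatin organiser of early lymphoid cells, stood at 246, 223, 256 and 247 CPM in LK Ifnar+/-, LK Ifnar-/-, LSK Ifnar+/- and LSK Ifnar-/- members, nearly level over the 4 libraries, against 34.2, 31.7, 106 and 79.1 CPM in other cells. Lsp1, a leukocyte cytoskeletal protein, stood at 466, 488, 478 and 396 CPM against 63.5, 63.9, 271 and 272 CPM. Ltb, encoding lymphotoxin beta, stood at 34.4, 33.1, 50.7 and 43.3 CPM in members against 13.5, 10.4, 87.8 and 144 CPM, higher than the other LK cells and lower than the other LSK cells. Irf8, a factor of monocyte and dendritic fate, stood at 244, 295, 78.9 and 30.1 CPM in members, lower in the LSK libraries. After thinning, 46.4%, 44.4%, 31.4% and 18.2% of members had an Irf8 UMI, also lower in the LSK libraries. The unthinned shares were 67.9%, 64.1%, 62.8% and 60.6%. The immediate early list, genes induced within minutes of a stimulus, had medians of Ifnar-/- over Ifnar+/- members of 0.33 in LK and 0.46 in LSK cells, with none of its 16 genes at least 2-fold apart in both.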
